A study of Ciona robusta with 6 samples.

Results

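Transcript levels of Lhx3/4 (gene model KH.S215.4) and Nkx2-1 (gene model KH.C10.338) were followed in 6 RNA-seq libraries from whole embryos of Ciona robusta, a tunicate. These 2 genes were chosen by identifier as endoderm factors, out of 15284 gene models in the deposited table. The embryos came from unfertilized eggs injected with Cas9 protein and guide RNA, then fertilized and grown at 21 degrees Celsius to Hotta stage 14, a neurula stage. CrBra embryos received a guide against Brachyury, the T-box factor of the notochord lineage, and CrGFP embryos a guide against GFP, which is not a gene of this species. Every group therefore carried injected Cas9 complexes, and the labels give neither a Cas9-free group nor the share of alleles that was cut. There were 3 libraries per guide, numbered 1 to 3, each from 50 to 85 pooled embryos.

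Lhx3/4 encodes a LIM-homeodomain transcription factor, and Nkx2-1, also called Ttf1 or Titf1, encodes an NK-type homeodomain factor. In ascidian embryos Lhx3/4 is turned on downstream of β-catenin in vegetal cells and is needed for endoderm differentiation, and it is also known from developing neurons. Nkx2-1 is expressed in ascidian endoderm and in the forebrain-like part of the nervous system, and its vertebrate relatives act in thyroid, lung and ventral forebrain. The table gives identifiers only, so the names rest on general knowledge of Ciona gene models and could not be checked against it. Of the 15284 identifiers, 0 matched the RefSeq gene table of this species used here, and 0 of the 12 symbols of an endoderm list were found in it, so no other endoderm gene or marker of another cell type was read and no sequence is shown. The libraries are from whole embryos, in which fewer endoderm cells and less RNA per cell cannot be told apart.

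Values below are normalised counts, which the authors obtained by dividing each library's counts by 1 factor. The reads counted on the gene models summed to between 13191537 and 16094085 per library. More models differed by replicate number than by guide. Of 11953 models tested, 73.4% differed by replicate number, whereas 0% differed between guides in limma without the replicate number in the fit (60 models at an unadjusted p under 0.05) and 0.402% did with it as a block. These shares are at an adjusted p under 0.05 with Benjamini-Hochberg adjustment over all tested models. KH.S1404.1, taken from the same general knowledge as Brachyury, had 298, 205 and 313 normalised counts in CrBra libraries 1, 2 and 3 and 949.5, 582 and 1058 in CrGFP libraries 1, 2 and 3. Its level was lower in every CrBra library than in any CrGFP library. The values of the guides did not overlap, in either direction, in 1.78% of tested models. KH.S1404.1 had a log2 fold change of -1.64, at an adjusted p of 0.608 in limma without the block and 8.89e-05 with it. A cut in the gene's DNA need not lower its transcript.

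Lhx3/4 differed little between guides, and its difference did not pass the test. KH.S215.4 had normalised counts of 209.995, 179.7 and 164.7 in CrBra libraries 1, 2 and 3, against 226, 195 and 179.1 in CrGFP libraries 1, 2 and 3. The library with number 1 was the highest of each group and the library with number 3 the lowest, and the values of the guides overlapped, as they did in all but 1.78% of tested models. The mean was 185 ± 23.1 in CrBra and 200.011 ± 23.7 in CrGFP (SD, n = 3 each), so the gap between means was smaller than either SD. The counts behind these values were 248, 161 and 161 reads in the CrBra libraries and 233, 192 and 176 reads in the CrGFP libraries.

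Within each replicate number, the CrBra library had slightly less Lhx3/4 than its CrGFP partner. The CrBra level was 93.0% of the CrGFP level for number 1, with an exact binomial 95% interval of 77.5% to 112%. It was 92.1% for number 2, with an interval of 74.2% to 114%. It was 92.0% for number 3, with an interval of 73.8% to 115%. All 3 intervals, which cover counting error only, included equal levels. A direction lower in CrBra in all 3 pairs was also seen in 11.1% of the tested models, and one higher in all 3 in 12.4%.

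The 3 pair ratios of Lhx3/4 lay closer together than the reads can resolve. Their SD was 0.0089 on the log2 scale, while counting error alone gives a standard error of 0.13, 0.15 and 0.16 for the log2 ratio of pairs 1, 2 and 3. Only 0.452% of the tested models had a smaller SD of pair ratios, and the median model had 0.14. The closeness of the ratios therefore does not measure their precision.

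In the fit across all tested models, Lhx3/4 had a log2 fold change of -0.11 on the log2(value + 1) scale. Its standard error was 0.21 and its 95% interval -0.60 to 0.37 in limma without the block (adjusted p = 1.0). With the replicate number as a block, the standard error was 0.097 and the interval -0.34 to 0.11 (limma, adjusted p = 0.999). On the linear scale the blocked interval runs from 79.2% to 108% of the CrGFP level. The fall of KH.S1404.1 to 32.1% lies outside that range, and a change of Lhx3/4 within it was not resolved with these libraries. Of the tested models, 70.9% had a smaller log2 fold change in size.

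**Figure D1:**
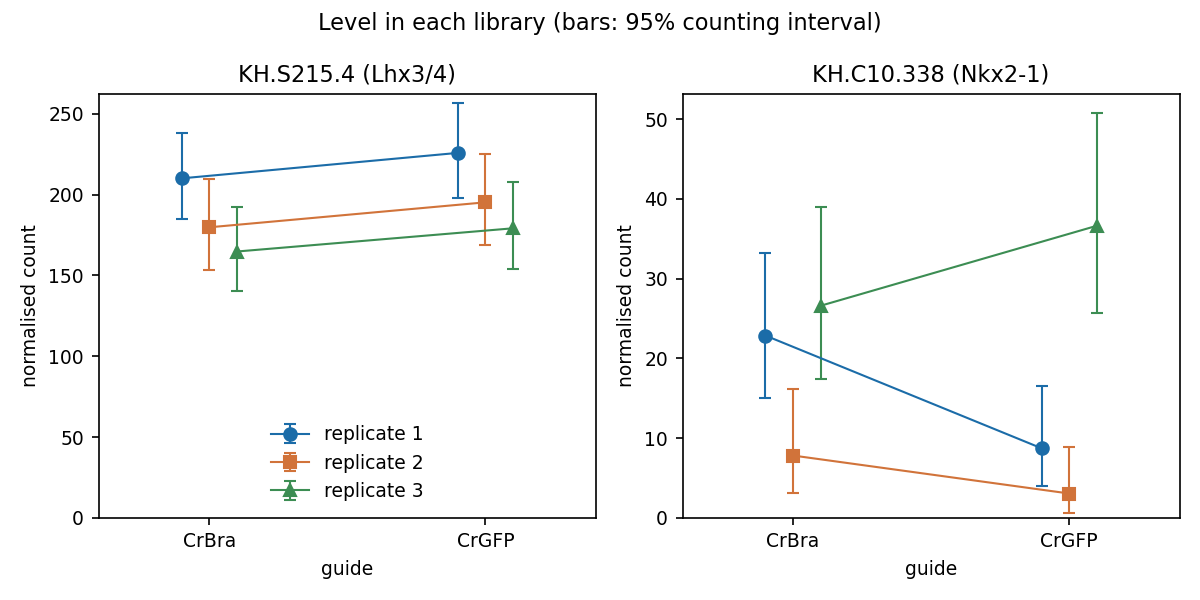
Normalised count of Lhx3/4 (left panel) and Nkx2-1 (right panel) in CrBra and CrGFP libraries, with lines joining libraries of the same replicate number and bars for exact Poisson 95% counting intervals. Lhx3/4 lies between 165 and 226 with nearly parallel lines, while Nkx2-1 runs from 3.05 to 36.6 and its lines slope in opposite directions.

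Nkx2-1 was low in every library and had no uniform direction between guides. KH.C10.338 had normalised counts of 22.9, 7.81 and 26.6 in CrBra libraries 1, 2 and 3, against 8.72, 3.05 and 36.6 in CrGFP libraries 1, 2 and 3. The highest and the lowest of all 6 values were both in CrGFP libraries, so the CrBra values lay wholly inside the CrGFP range. The mean was 19.1 ± 9.95 in CrBra and 16.1 ± 18.0 in CrGFP (SD, n = 3 each). The coefficient of variation was 52.1% in CrBra and 111% in CrGFP, against 12.5% and 11.8% for Lhx3/4 in the same groups.

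Few reads stand behind these values. The CrBra libraries held 27, 7 and 26 Nkx2-1 reads and the CrGFP libraries 9, 3 and 36, which sum to 60 and 48. A library with 3 reads has an exact Poisson 95% interval of 0.619 to 8.77 reads, and one with 36 reads an interval of 25.2 to 49.8 reads. The floor for a count of 0 was set at 3 reads, a fixed limit apart from these intervals, and CrGFP library 2 stood at it. Nkx2-1 entered the test narrowly, since the filter asked for a normalised count of at least 10 in at least 3 libraries and exactly 3 reached it. These were CrBra libraries 1 and 3 and CrGFP library 3, so neither library of number 2 reached it.

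The pairs disagreed in direction for Nkx2-1. The CrBra level was 2.62 times the CrGFP level for number 1, with an exact binomial 95% interval of 1.20 to 6.34. It was 2.56 times for number 2, but with an interval of 0.585 to 15.4. For number 3 it was 0.726 times, with an interval of 0.421 to 1.24. The interval of pair 1 excluded equal levels by counting error, whereas those of pairs 2 and 3 included them. Directions that differed among the 3 pairs were the usual case, seen in 76.4% of tested models. The SD of the 3 log2 ratios, on the log2(value + 1) scale, was 0.96, and 98.8% of the tested models had a smaller one. Counting error alone gives a standard error of 0.56, 0.996 and 0.37 for the log2 ratio of pairs 1, 2 and 3. These errors, for ratios without the added 1, are of the same order as that SD. Whether the few reads of Nkx2-1 account for its rank was not tested.

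The fitted log2 fold change of Nkx2-1 was 0.66 on the log2(value + 1) scale, with a standard error of 0.88 and a 95% interval of -1.42 to 2.74 in limma without the block (adjusted p = 1.0). With the block the standard error was 0.39 and the interval -0.25 to 1.56 (limma, adjusted p = 0.999). The blocked interval corresponds to 0.842 to 2.95 times the CrGFP level on the linear scale, so neither no difference nor a doubling is outside it. The estimate depended on single libraries, being -0.090 without CrGFP library 2 and 1.52 without CrGFP library 3, in limma without the block (adjusted p = 1.0 in each). Leaving out pair 3 from the blocked fit gave 1.21 (limma, adjusted p = 0.448, the lowest over 24 alternatives that reach up to 1.0). The ratio of the linear means was 1.18, smaller than the fitted change, in which low libraries weigh more.

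**Figure D2:**
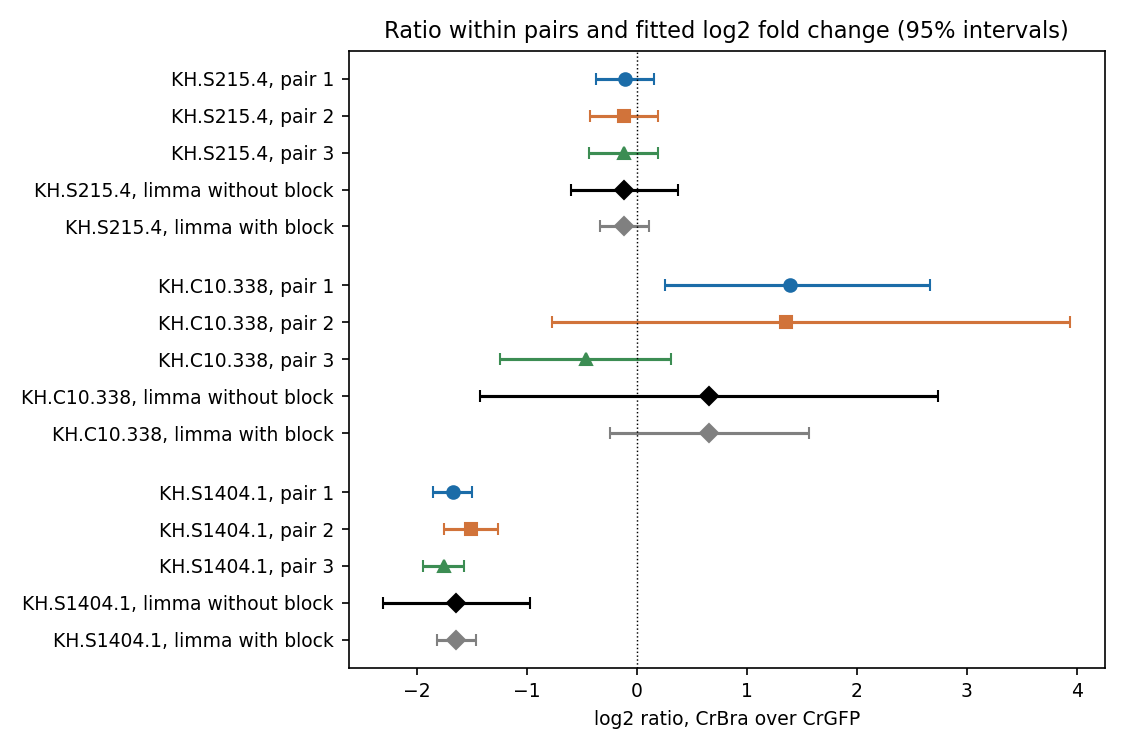
Log2 ratio of CrBra over CrGFP for each pair, with exact binomial 95% counting intervals (coloured points), and limma log2 fold changes with 95% intervals without (black) and with (grey) the replicate block. The Lhx3/4 ratios sit just below 0 with intervals across it, the Nkx2-1 ratios spread on each side of 0, and the KH.S1404.1 ratios lie between -1.76 and -1.50.

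Whether the guide moved these genes differently was asked through the difference of their log2(value + 1) within each library. The log2 fold change of Lhx3/4 minus that of Nkx2-1 was -0.77, and -0.82 and -0.54 with pseudocounts of 0.5 and 5. Within pairs 1, 2 and 3 this difference was -1.40, -1.24 and 0.33. An exact two-sided permutation test over libraries gave p = 0.6, where 3 against 3 libraries cannot go below 0.1. Exchanging labels within pairs gave p = 0.5 in an exact two-sided permutation test, where the smallest possible p is 0.25. A difference in response between the genes was not shown, and neither permutation test can reach 0.05 with these libraries.

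Nkx2-1 differed among the replicate numbers, as did 73.4% of tested models at an adjusted p under 0.05. Averaged over both guides, its normalised count was 15.8 for number 1, 5.43 for number 2 and 31.6 for number 3. Number 3 was highest and number 2 lowest with either guide. The values of number 1 were 22.9 in CrBra and 8.72 in CrGFP, those of number 2 were 7.81 and 3.05, and those of number 3 were 26.6 and 36.6. The 3 numbers thus did not overlap, as was the case in 49.6% of tested models, but the gaps between 7.81 and 8.72 and between 22.9 and 26.6 were below counting error. The range among numbers was 2.43 on the log2(value + 1) scale (limma F-test with the guide as covariate, adjusted p = 0.00604). It was 1.60 without CrGFP library 3, 3.26 without CrBra library 3 and 0.30 on the regularized log values, where it also passed. Nkx2-1 met the filter only through numbers 1 and 3, and with no filter its range was 2.43 (limma F-test, adjusted p = 0.0118). The range of 2.43 was larger than that of 97.3% of tested models, whose median was 0.56. A difference among numbers together with a range of at least 1 was found in 20.4% of them. Number 2, at the low end of the range, held 10 Nkx2-1 reads over both guides. The rank was not set against models of like depth. What a replicate number shares is not given in the labels.

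The spread of Lhx3/4 among replicate numbers was smaller and did not pass the test. Its mean normalised count over both guides was 218 for number 1, 187 for number 2 and 172 for number 3. Number 2 (179.7 in CrBra and 195 in CrGFP) lay just above number 3 (164.7 in CrBra and 179.1 in CrGFP). The numbers thus did not overlap, as was the case in 49.6% of tested models, but the gap between 179.7 and 179.1 was below counting error. The range was 0.34 on the log2(value + 1) scale (limma F-test with the guide as covariate, adjusted p = 0.0719). Only 25.3% of tested models had a smaller range. The order of numbers also differed between the genes, since number 3 was the lowest for Lhx3/4 and the highest for Nkx2-1.

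**Figure D3:**
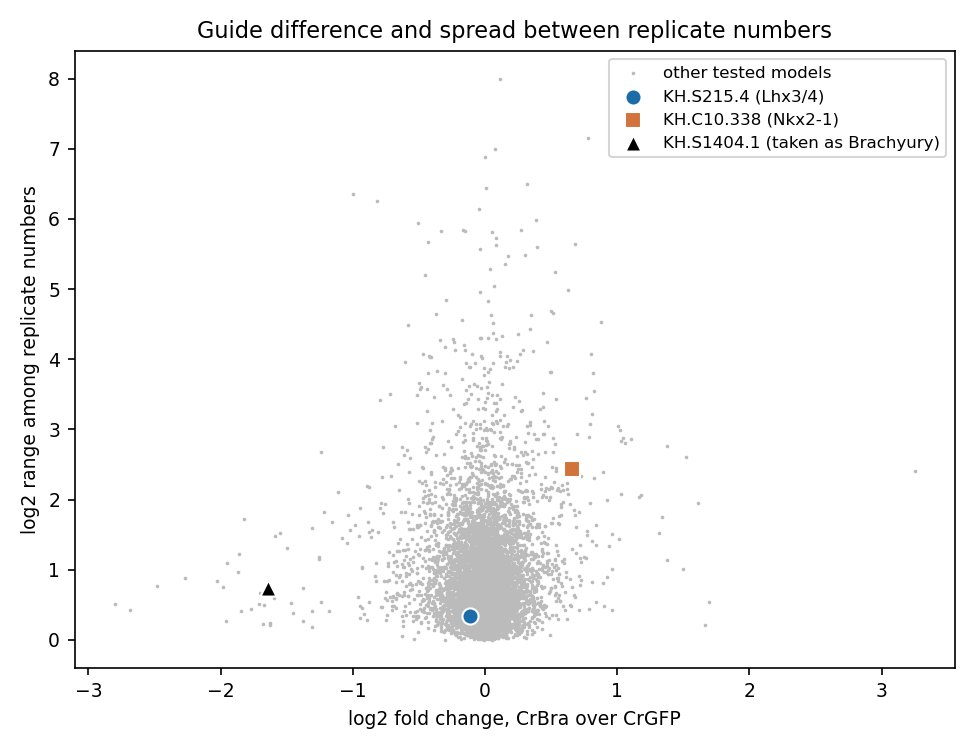
Log2 fold change of CrBra over CrGFP (horizontal) against the log2 range among replicate numbers (vertical) for 11953 tested gene models in grey, both on the log2(value + 1) scale. Lhx3/4 lies inside the dense part at -0.11 and 0.34, Nkx2-1 lies high at 0.66 and 2.43, and KH.S1404.1 lies to the left at -1.64 and 0.73.

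The models whose levels followed each gene most closely were found by the root mean square difference of log2(value + 1), centred on each model's mean over the 6 libraries. The closest to Lhx3/4 were KH.C8.76 at 0.030 and KH.L167.3 at 0.032, and 395 of the 11952 other models lay within 0.1 of it. KH.C8.76 had normalised counts of 7705, 6624 and 6127 in CrBra libraries 1, 2 and 3, against 7907, 7011 and 6638 in CrGFP libraries 1, 2 and 3. It showed the same order of numbers as Lhx3/4 and a log2 fold change of -0.078 (limma, adjusted p = 1.0). The choice by likeness over the same 6 libraries favours a shared order, so it is no separate result.

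Fewer models lay close to Nkx2-1. Its closest were KH.C14.355 at 0.31 and KH.C2.1145 at 0.37, and 18 of 11952 lay within 0.5 of it, against the limit of 0.1 used for Lhx3/4. The measure is not scaled to spread, so a model that varies widely tends to lie far from most others. KH.C14.355 had normalised counts of 108, 32.4 and 128 in CrBra libraries 1, 2 and 3, against 35.8, 26.4 and 135 in CrGFP libraries 1, 2 and 3. As for Nkx2-1, the CrBra library was higher for numbers 1 and 2 and lower for number 3, and the log2 fold change of 0.59 did not pass (limma, adjusted p = 1.0). Here too the choice by likeness favours the shared pattern. The table pairs none of these identifiers with a name. Lhx3/4 and Nkx2-1 themselves were 1.18 apart, and 11677 models lay nearer to Lhx3/4 than Nkx2-1 did, while 6749 lay nearer to Nkx2-1 than Lhx3/4 did.

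**Figure D4:**
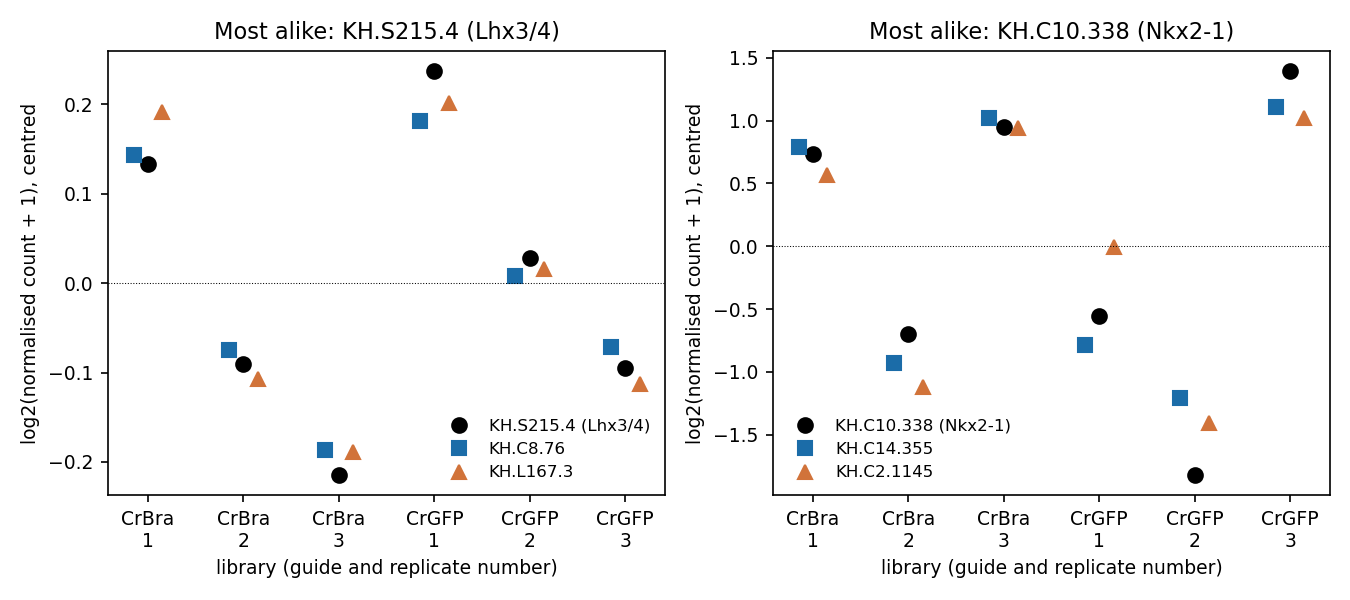
Log2(normalised count + 1), centred on each model's mean, in the 3 CrBra and 3 CrGFP libraries for Lhx3/4 (left panel), Nkx2-1 (right panel) and the pair of models closest to each. The points of Lhx3/4 fall within 0.3 of 0, whereas those of Nkx2-1 span more than 3 log2 units. With either guide, Nkx2-1 is highest for number 3 and lowest for number 2. The library of number 1 lies near that of number 3 in CrBra but not in CrGFP.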

How the data were processed

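RNA-seq of 3 CrBra and 3 CrGFP libraries was analysed from a table of 15284 KH2012 gene models. The kit was a stranded mRNA one, per the labels' protocols. TopHat2 2.9.8b and DESeq 1.8.1 are named, as written here, in the submitters' processing notes. The counting tool, its strand setting and the genome build are not given in the sources used here, so reads of overlapping or antisense models cannot be told apart. Per the file headers, the authors deposited counts normalised to library size (a signal, with totals from 13627742 to 14896910) and regularized log2 values of the same counts. All values of the first block were whole multiples of 1 read (100%, tolerance 0.01 reads), so whole reads were recovered.

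The 11953 models that reached a value of 10 in 3 or more libraries were compared on log2(value + 1) with limma 3.58.1 (mean-variance trend) in R 4.3.3, adjusted by Benjamini-Hochberg at 0.05, two-sided. The replicate number was not in the first fit and was a block in the alternative. Deviations from group means correlated at 0.86, 0.88 and 0.82 between libraries of the same number and at -0.57 to -0.30 between different numbers. Each of the 3 exceeded 0.1, so same-numbered libraries were taken as pairs, although the labels do not say what they share. Deviations sum to 0 within a group, which favours negative values between numbers. The design text calls the replicates biological. Alternatives used edgeR 4.0.16 and DESeq2 1.42.0 on recovered reads, other pseudocounts, filters, scalings and left-out libraries. Intervals of counts (exact Poisson) and of pair ratios (exact binomial, at 95%, SciPy 1.17.1) cover counting error only. The genes and lists were chosen with earlier results of these data known. The 2 genes, the model of the targeted gene and the 2 models nearest to each gene in root mean square difference are named.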

Additional observations from a re-analysis of the deposited data

How the results depend on the processing

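Lhx3/4 kept its direction and did not pass in any of 24 alternative fits, with log2 fold changes from -0.21 to -0.024. Nkx2-1 did not pass in any of 24 either and kept its direction in 23, from 0.046 (regularized log values, which shrink low counts) to 1.52, but was -0.090 without CrGFP replicate 2. edgeR with TMM gave 0.26 for Nkx2-1 and DESeq2 0.25, against 0.66 in limma. The range of Nkx2-1 among replicate numbers passed in all 13 alternatives, from 0.30 to 3.26, and that of Lhx3/4 in none. From 6719 to 8931 models passed in these 13. The difference between the genes' fold changes stayed negative in 10 alternatives, from -1.71 to -0.039, although pair 3 alone gave 0.33. These alternatives reuse the same 6 libraries, and their lowest p was 0.2 (exact two-sided permutation test). The replicate block changed no call of Lhx3/4 or Nkx2-1. Without the block, 0 models were called in limma and edgeR (49 to 112 at an unadjusted p under 0.05) and 21 in DESeq2. With the replicate block, limma called 48, edgeR 57 and DESeq2 58, limma on regularized log values 53, and, in fits added after the data were seen, limma with no filter 27 and with pseudocounts of 0.5 and 5 called 46 and 54. With the block and without replicate 1, 2 or 3, limma called 88, 25 and 100. KH.S1404.1 passed with the replicate block at -1.64 in limma (-1.64 with no filter, -1.64 and -1.63 with pseudocounts of 0.5 and 5), -1.65 in edgeR and DESeq2, -0.91 on regularized log values and -1.71 to -1.58 without each pair, and without the block in DESeq2 only (-1.66); without each library it lay between -1.90 and -1.45. What causes these shifts was not tested. Depth was 3 to 36 reads per library for Nkx2-1 and 161 to 248 for Lhx3/4.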
